A study of Mus musculus with 7 samples.

Results

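The 26S proteasome was followed through the genes whose symbols begin with Psma, Psmb, Psmc, Psmd or Psme and go on with a digit, which were 45 of the 27998 genes in the count table. The rule used gene names alone and no measured value. Of the 45, 5 belong to the immunoproteasome and its PA28 cap (Psmb8, Psmb9, Psmb10, Psme1 and Psme2) and were set apart. The data are single-cell RNA counts from the mammary glands of 3 young (3 to 4 months) and 4 aged (13 to 14 months) nulliparous females, mice whose background mixed FVB, 129 and C57BL/6J, all taken in diestrus, from the fourth glands without their lymph nodes. The labels name no transgene, deletion or treatment. The 7 libraries held 1264 to 2865 cells each and 13684 in all, with 6652599 to 16999625 unique molecular identifiers (UMIs, 1 for each captured RNA molecule) for each mouse. The authors' 13 cell types were used: 4 epithelial (myoepithelial, luminal hormone-sensing or Luminal-HS, luminal alveolar or Luminal-AV, and the mixed Luminal-HS-AV), 4 vascular or stromal (vascular endothelial, lymphatic endothelial, pericyte, fibroblast) and 5 immune (dendritic cell, macrophages Ma and Mb, NK cell, T and B cells). No marker was set for Luminal-HS-AV cells, so that label was not checked. In the other types the defining markers were each highest in their own type, apart from Prlr and Esr1, which were highest in Luminal-HS-AV rather than Luminal-HS cells, and Cd3g, which was highest in NK cells. UMIs were summed over the cells of a mouse and type wherever there were at least 3, so the mouse was the replicate, and levels are given as CPM, the share of a sum's counts that a gene takes scaled to 1e6 with edgeR's TMM factors. Barcodes were written in 1 format in the young and in another in the aged libraries. The labels name no batch, so it is not known whether the ages were also handled apart. An effect of age could not be told apart from one of such handling.

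The proteasome is the protease that breaks down proteins tagged with ubiquitin. Its 20S core is a barrel of outer alpha and inner beta rings, with the 3 peptidases Psmb5, Psmb6 and Psmb7 inside it. The 19S cap on its ends has a base of Psmc ATPases, which unfold the substrate, and Psmd subunits, which bind ubiquitin, remove it and hold the parts together. Interferon signalling replaces the 3 peptidases with Psmb8, Psmb9 and Psmb10 and adds the PA28 cap made of Psme1 and Psme2. The peptides cut by this immunoproteasome are shown to T cells on class I molecules, and dendritic cells are known for high levels of it.

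By role the 45 genes were 7 subunits of the 20S alpha ring, 4 non-catalytic and 3 constitutive catalytic subunits of the beta ring, 5 of the immunoproteasome set, 6 ATPases and 11 non-ATPases of the 19S cap, 3 chaperones that help to build the cap (Psmd5, Psmd9, Psmd10), 2 other activators (Psme3 and Psme4), 2 tissue-restricted core subunits (Psma8 of testis and Psmb11 of the thymic cortex) and 2 symbols that the rule takes in although they name no standard subunit. These last are Psmc3ip, a factor of meiotic recombination named for its binding to Psmc3, and Psme2b, a second gene for the beta chain of PA28. Of all members, 9 overlap another annotated gene on the same strand. Psme2b is one of them and overlaps Gm12185 and 9930111J21Rik1, and whether its UMIs come from it alone was not tested. The tissue-restricted pair was close to absent, with 18 UMIs of Psma8 and 10 of Psmb11 over all cells. Psma7 had 27024 UMIs and Psmb1 had 26285, and a UMI of Psmb1 was found in 79.5% of all cells. Because 1 UMI is counted at the 3′ end of each molecule, these counts do not grow with gene length. A filter on low counts left 41 members in the comparison of cell types (without Psma8, Psmb11, Psmc3ip and Psme4) and 4 to 43 in the comparisons by age.

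Promoter windows of 250 bases before the start site were held by the RefSeq table (GRCm38.p6) for 38 members, and 4 letter patterns were searched in them on both strands. The pattern CCGGAAG, the core of an ETS factor site, was in 12 of 38 member windows (31.6%) and in 6.91% of all 32851 windows. Those were 3 of the 5 ATPases and 5 of the 9 non-ATPases of the 19S cap that had a window. The rest were 1 of 7 alpha subunits, 2 of 2 other activators and 1 of the 2 symbols outside the standard subunits. The antioxidant response pattern TGACNNNGC was in 5 member windows (13.2%) and in 10.2% of all windows, which is a close share. The 5 were Psmb5 and Psmb6, the constitutive peptidases with a window, and Psmc6, Psmd12 and Psmd9. The interferon response pattern, GAAA and again GAAA with 2 bases between them, was in 3 member windows (7.89%; 2.98% of all). These were Psmb3, Psmd4 and Psmd9, and no gene of the immunoproteasome set held it. The gamma-activated pattern TTCNNNGAA was in 1 member window, that of Psmb8 (2.63%; 7.02% of all). The windows of 4 genes are printed, those whose levels are described later. Only the letters that match the pattern named for each gene are in capitals. Psmd4 also holds the interferon response pattern, read on the other strand and left in small letters. All 4 were picked from members with a match. Psmb5 and Psmb6 are shown because these constitutive peptidases were higher in Luminal-HS cells than in the other types. Psmd11 and Psmd4 are shown because they were higher in aged than in young myoepithelial cells. Of the other 19S members higher in those aged cells, Psmc2, Psmc6 and Psmd12 had an ETS match. For Psmd1 and Psmd3, which rose by more than Psmd4, no ETS match was found. Whether the pattern bears on levels was not tested. The 4 windows lie at chr14:54618023-54618245, minus strand, for Psmb5 (antioxidant response pattern, without 27 bases that overlap an annotated exon), chr11:70525107-70525356, plus strand, for Psmb6 (antioxidant response pattern), chr11:80428365-80428614, plus strand, for Psmd11 (ETS pattern, read on the other strand) and chr3:95042615-95042864, minus strand, for Psmd4 (ETS pattern).
Psmb5: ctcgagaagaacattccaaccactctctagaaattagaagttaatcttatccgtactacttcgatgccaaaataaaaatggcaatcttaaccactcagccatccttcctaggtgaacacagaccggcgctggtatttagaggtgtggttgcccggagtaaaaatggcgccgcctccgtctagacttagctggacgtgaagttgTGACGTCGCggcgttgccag
Psmb6: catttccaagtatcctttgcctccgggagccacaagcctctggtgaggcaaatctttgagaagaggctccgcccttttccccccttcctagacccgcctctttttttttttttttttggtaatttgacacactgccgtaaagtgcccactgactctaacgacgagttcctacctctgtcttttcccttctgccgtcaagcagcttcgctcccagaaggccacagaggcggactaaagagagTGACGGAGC
Psmd11: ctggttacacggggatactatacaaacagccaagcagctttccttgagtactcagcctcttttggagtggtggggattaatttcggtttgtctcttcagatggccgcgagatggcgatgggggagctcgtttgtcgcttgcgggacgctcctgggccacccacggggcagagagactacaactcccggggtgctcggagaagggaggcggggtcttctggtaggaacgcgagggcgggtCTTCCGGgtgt
Psmd4: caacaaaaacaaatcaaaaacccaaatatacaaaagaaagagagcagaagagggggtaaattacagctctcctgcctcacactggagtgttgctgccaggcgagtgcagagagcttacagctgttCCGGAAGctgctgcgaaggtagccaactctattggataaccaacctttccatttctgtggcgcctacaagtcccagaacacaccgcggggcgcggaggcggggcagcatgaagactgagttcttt

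The 5 immunoproteasome genes all had their lowest mean in myoepithelial cells and their highest in dendritic, endothelial or Luminal-HS cells. Psmb8, the inducible counterpart of Psmb5, ran from 36.9 to 108 CPM with a median of 48.3 over the 7 mice in myoepithelial cells and from 101 to 179 CPM with a median of 163 in fibroblasts. In Luminal-HS cells it ran from 298 to 707 CPM with a median of 478 and in vascular endothelial cells from 425 to 745 CPM with a median of 475, and in the dendritic cells of 5 mice from 355 to 697 CPM with a median of 655. The mice of these last 3 types did not overlap with the myoepithelial cells of any mouse, while the 3 types overlapped with each other. Psmb9, the inducible counterpart of Psmb6, was highest in dendritic cells at 215 ± 39.8 CPM (SD, n = 5), followed by vascular endothelial cells at 149 ± 35.1 CPM (SD, n = 7) and, with overlapping spread, by lymphatic endothelial cells, Luminal-HS cells, pericytes, and T and B cells at means of 96.5 to 107 CPM. It was lowest in myoepithelial cells at 5.85 ± 4.71 CPM (SD, n = 7), where 35 of 1670 cells (2.10%) held a UMI of it against 43.4% of dendritic cells, at similar median depths of 4431 and 4648 UMIs for each cell. Psmb10, the inducible counterpart of Psmb7, was also lowest there at 20.8 ± 10.3 CPM (SD, n = 7) and highest in lymphatic and vascular endothelial cells at 148 ± 60.4 CPM (SD, n = 5) and 128 ± 34.4 CPM (SD, n = 7). Lymphatic endothelial cells numbered only 28 over all mice. Of the PA28 chains Psme1 and Psme2, Psme1 was at 137 ± 17.6 CPM (SD, n = 7) in myoepithelial cells and at 477 ± 116 CPM (SD, n = 5) in dendritic cells.

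**Figure D1:**
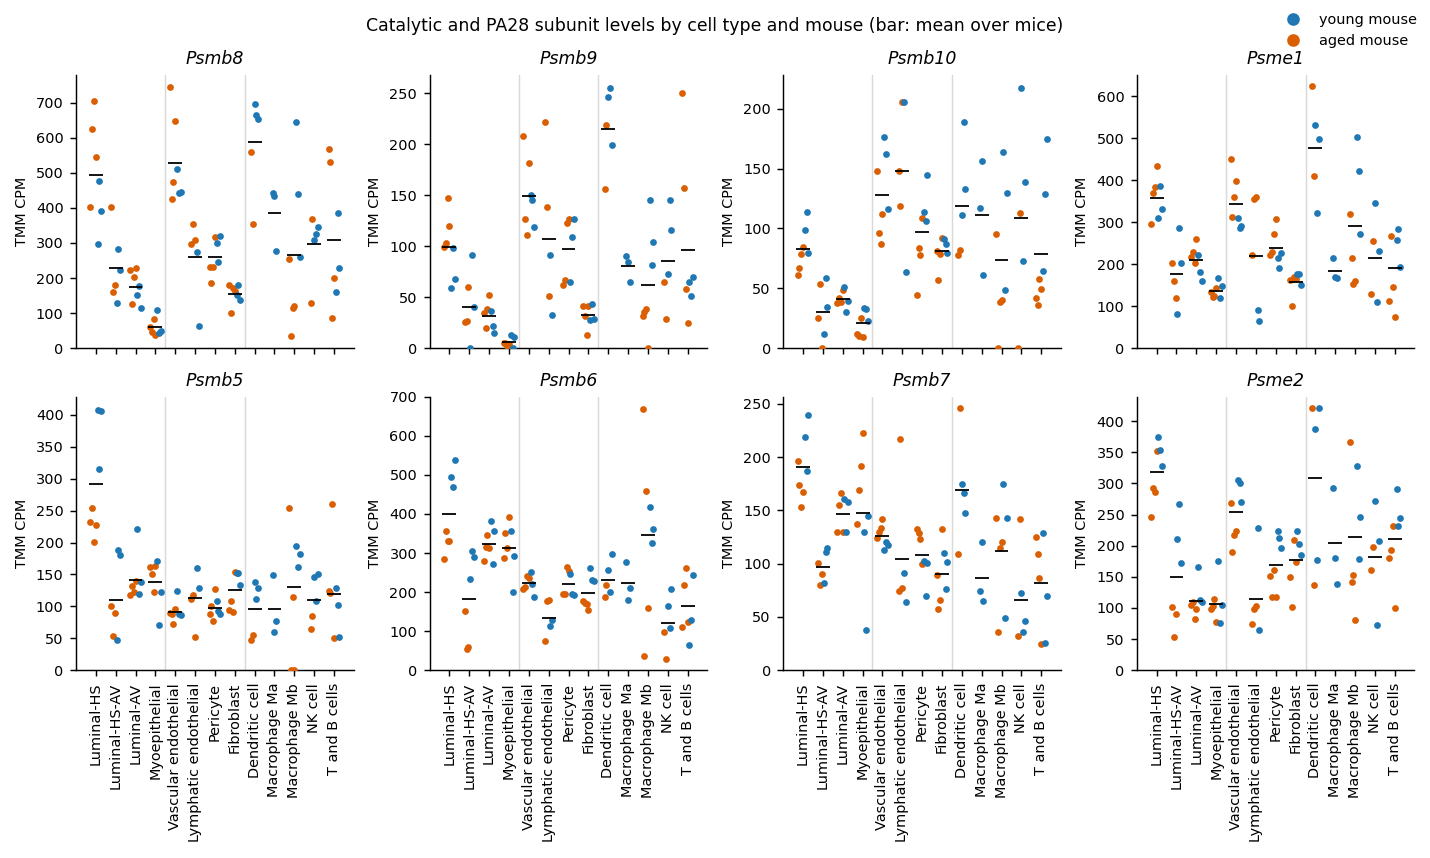
Level of the 8 catalytic and PA28 genes (vertical axis, TMM-scaled CPM, linear from 0) in each of the 13 cell types, 1 point for each mouse (blue young, orange aged) and a bar at the mean over mice. Psmb8, Psmb9 and Psmb10 lie lowest in myoepithelial cells, and Psmb5 lies highest in Luminal-HS cells, where the young mice sit at 315 to 408 CPM.

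To compare types within each mouse, every type was set against the mean of the other 12 in a fit with the mouse as a block (edgeR's quasi-likelihood test with Benjamini-Hochberg adjustment over the 7090 genes tested). The types had been drawn by the authors from the expression of these same cells, so an adjusted p between types describes how far they stand apart and is not an independent test. In myoepithelial cells 22 of 41 members were higher and 7 lower (background: 34.7% of all genes higher and 15.6% lower), or 13 and 8 with RLE size factors and 19 in all past a 1.5-fold minimum (background: 43.4%). All 5 immunoproteasome genes were among the lower ones, with log2 differences of -3.77 ± 0.31 (adjusted p = 3.15e-18) for Psmb9, -2.36 ± 0.24 (adjusted p = 4.84e-14) for Psmb8 and -2.20 ± 0.21 (adjusted p = 8.39e-15) for Psmb10. The PA28 chains fell by less, with -0.86 ± 0.17 (adjusted p = 1.09e-05) for Psme1 and -0.81 ± 0.15 (adjusted p = 3.41e-06) for Psme2, and the 5 kept their direction and call under each of the 4 other scalings run. The higher members were mostly of the 19S cap: 8 of 11 non-ATPases (list median 0.99 on the log2 scale, against 0.15 for all genes) and 4 of 6 ATPases (0.60). They included Psmd1, the large scaffold of the base, at 1.35 ± 0.15 (adjusted p = 5.9e-13), Psmd7, the partner of the deubiquitinase Psmd14, at 1.24 ± 0.16 (adjusted p = 7.78e-10), and Psmd2, a docking site for ubiquitin shuttles, at 1.05 ± 0.17 (adjusted p = 1.25e-07). Of the constitutive peptidases Psmb6 at 0.53 ± 0.15 (adjusted p = 0.00256) and Psmb7 at 0.41 ± 0.15 (adjusted p = 0.0157) passed the test and Psmb5 at 0.23 ± 0.16 (adjusted p = 0.26) did not, and the first 2 lost their calls with RLE factors, DESeq2 or plain library totals.

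Luminal-HS cells, which carry the hormone receptors, had the most members above the rest: 34 of 41 were higher and none lower than the mean of the other types (background: 37.5% higher and 13.3% lower), with a member median of 0.64 against 0.19 for all genes. The count was 21 with RLE factors, 25 with DESeq2 and 29 with plain totals, with none lower in any of them, and 21 of the 41 members had their highest mean in this type. All 4 non-catalytic and all 3 catalytic beta subunits, 6 of 7 alpha subunits, 6 of 6 ATPases, 8 of 11 non-ATPases and all 3 cap chaperones were among them. Psmb5, the chymotrypsin-like peptidase, ran from 201 to 408 CPM with a median of 254 over 7 mice and had the largest log2 difference of the members, at 1.32 ± 0.14 (adjusted p = 2.95e-13). Of the other constitutive peptidases, Psmb6 was at 0.87 ± 0.14 (adjusted p = 3.01e-07) and Psmb7 at 0.81 ± 0.13 (adjusted p = 2.84e-07). The cap chaperone Psmd10, also known as gankyrin, was at 1.26 ± 0.15 (adjusted p = 2.15e-11), the lid subunit Psmd3 at 1.02 ± 0.14 (adjusted p = 2.81e-09) and Psmb3 at 0.96 ± 0.13 (adjusted p = 1.33e-09). In the immunoproteasome set 4 of 5 were higher, with Psmb8 at 0.93 ± 0.18 (adjusted p = 4.53e-06), Psme2 at 0.90 ± 0.13 (adjusted p = 2.81e-09), Psme1 at 0.64 ± 0.14 (adjusted p = 7.7e-05) and Psmb9 at 0.50 ± 0.18 (adjusted p = 0.0161), while Psmb10 at 0.13 ± 0.15 (adjusted p = 0.558) did not pass. The call on Psmb9 was lost with RLE factors, DESeq2, plain totals, a minimum of 10 cells, and without the mouse Aged C.

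The luminal types differed most in the immunoproteasome. Set directly against Luminal-AV cells, the milk-producing lineage, Luminal-HS cells were higher in 22 of 41 members and lower in none (background: 23.3% of all genes higher), 13 of them past a 1.5-fold minimum (background: 41.2% in either direction), and all 5 immunoproteasome genes were among the 22, with a list median of 1.52 against -0.05 for all genes. Psmb9 differed by 1.63 ± 0.24 (adjusted p = 2.02e-08), Psme2 by 1.53 ± 0.18 (adjusted p = 8.19e-12), Psmb8 by 1.52 ± 0.25 (adjusted p = 3.84e-07), Psmb10 by 0.92 ± 0.20 (adjusted p = 5.94e-05) and Psme1 by 0.77 ± 0.20 (adjusted p = 0.000761). Psmb5 was higher by 1.03 ± 0.20 (adjusted p = 1.04e-05), whereas Psmb6 at 0.30 ± 0.20 (adjusted p = 0.227) and Psmb7 at 0.40 ± 0.18 (adjusted p = 0.0613) did not pass. Outside these sets Psme2b at 1.30 ± 0.25 (adjusted p = 9.66e-06), Psmb3 at 0.85 ± 0.18 (adjusted p = 5.97e-05) and the ATPase Psmc4 at 0.75 ± 0.18 (adjusted p = 0.000264) were furthest apart. Against the mean of the other 12 types, Luminal-AV cells were lower in Psmb9 (-1.26 ± 0.21 (adjusted p = 2.97e-07)), Psmb10 (-0.87 ± 0.17 (adjusted p = 7.33e-06)), Psme2 (-0.76 ± 0.14 (adjusted p = 4.94e-06)) and Psmb8 (-0.72 ± 0.20 (adjusted p = 0.00181)), and not called for Psme1 (-0.19 ± 0.15 (adjusted p = 0.339)). The direction of their other members depended on the scaling: 14 of 41 were higher and 5 lower (background: 36.7% higher and 10.7% lower, close to the members' share), but 2 higher and 10 lower with RLE factors or plain totals and 2 and 11 with DESeq2, and 7 in all were past a 1.5-fold minimum (background: 36.8%). Psma6 at 0.75 ± 0.14 (adjusted p = 8.88e-06), Psmd8 at 0.74 ± 0.13 (adjusted p = 1.95e-06) and Psme2b at -1.27 ± 0.25 (adjusted p = 1.09e-05) were the furthest of those from the mean, Psmb6 was at 0.54 ± 0.15 (adjusted p = 0.00154), Psmb7 at 0.38 ± 0.14 (adjusted p = 0.0185) and Psmb5 at 0.20 ± 0.15 (adjusted p = 0.306). Luminal-HS-AV cells, with 4 to 130 cells in each of 6 mice, were lower than Luminal-HS cells in 15 of 41 members and higher in none (background: 7.11%), led by Psmb10 at -1.24 ± 0.30 (adjusted p = 0.00595) and Psmb5 at -1.14 ± 0.25 (adjusted p = 0.00163), but this count fell to 2 with RLE factors, to 2 without Aged B or without Young C, to 4 without Young A, to 8 without Aged D and to 3 with a minimum of 10 cells. Against Luminal-AV cells 1 member was higher and 2 lower (background: 24.2%), or 3 higher and 0 lower with RLE factors, 0 called without Aged D, 1 without Young A and 5 without Young B.

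In vascular endothelial cells 13 members were higher and 2 lower (background: 39.9% called, close to the members' share), or 9 and 3 with RLE factors and 7 in all past a 1.5-fold minimum (background: 32.9%), and all 5 immunoproteasome genes were higher under every scaling. Psmb9 was at 1.16 ± 0.17 (adjusted p = 1.69e-08), Psmb8 at 1.01 ± 0.17 (adjusted p = 6.87e-07), Psmb10 at 0.81 ± 0.15 (adjusted p = 2.37e-06), Psme1 at 0.57 ± 0.14 (adjusted p = 0.00062) and Psme2 at 0.52 ± 0.13 (adjusted p = 0.000526). Their constitutive counterparts were not: Psmb5 was lower at -0.46 ± 0.17 (adjusted p = 0.0191), a call lost without any 1 of Aged B, Aged C, Young B and Young C, and Psmb6 at -0.03 ± 0.16 (adjusted p = 1) and Psmb7 at 0.15 ± 0.14 (adjusted p = 0.498) did not pass. Psme2b at 0.83 ± 0.21 (adjusted p = 0.000559), Psmd10 at -0.75 ± 0.19 (adjusted p = 0.000678) and Psmd7 at 0.61 ± 0.17 (adjusted p = 0.0017) were the furthest of the rest. In dendritic cells, which present antigen, 9 members were higher and 2 lower (background: 20.1% higher and 8.10% lower, close to the members' share), or 5 and 8 with RLE factors or plain totals, and all 5 immunoproteasome genes were higher: Psmb9 by 1.85 ± 0.24 (adjusted p = 9.2e-10), Psmb8 by 1.23 ± 0.22 (adjusted p = 2.43e-06), Psme1 by 1.13 ± 0.18 (adjusted p = 2.48e-07), Psme2 by 0.78 ± 0.17 (adjusted p = 0.00017) and Psmb10 by 0.61 ± 0.23 (adjusted p = 0.0394). The call on Psmb10 was lost with RLE factors, DESeq2 and plain totals, and without Aged B, Young B or Young C, and that on Psme2 without Young C. Psmb7 at 0.58 ± 0.21 (adjusted p = 0.0253) was higher but called in only 4 of 13 alternatives (lost with RLE factors, DESeq2, plain totals, no filter, a minimum of 10 cells, and without Aged B, Young A, Young B or Young C), Psmb5 at -0.33 ± 0.24 (adjusted p = 0.362) and Psmb6 at 0.02 ± 0.21 (adjusted p = 1) did not pass, and Psma4 at 0.80 ± 0.20 (adjusted p = 0.000925), Psmd3 at -0.84 ± 0.30 (adjusted p = 0.029) and Psmd7 at -0.76 ± 0.29 (adjusted p = 0.0425) were the furthest of the rest. Psmd3 was lost without Aged B or Young B, and Psmd7 without Aged A, B or D or Young A or B. Without Aged B or Young B the count of called members in dendritic cells fell from 11 to 7, and without Young C to 6.

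Fibroblasts had no member above the mean of the other types and 7 below it (background: 9.20% lower), or 11 with plain totals and 4 past a 1.5-fold minimum (background: 33.9% in either direction). Psmb9 at -1.12 ± 0.24 (adjusted p = 8.45e-05), Psmb8 at -0.91 ± 0.22 (adjusted p = 0.000328) and Psme1 at -0.62 ± 0.17 (adjusted p = 0.00176) were lower, while Psmb10 at 0.05 ± 0.18 (adjusted p = 0.931), Psme2 at -0.07 ± 0.15 (adjusted p = 0.82), Psmb5 at 0.02 ± 0.18 (adjusted p = 1), Psmb6 at -0.19 ± 0.17 (adjusted p = 0.443) and Psmb7 at -0.32 ± 0.16 (adjusted p = 0.122) did not pass. Psmd10 at -0.83 ± 0.22 (adjusted p = 0.00125), the ubiquitin receptor Psmd4 at -0.47 ± 0.15 (adjusted p = 0.0105) and Psma7 at -0.44 ± 0.15 (adjusted p = 0.0138) were lower too. The other types rest on fewer cells, and their few calls moved with the scaling. Pericytes had 2 members higher and 3 lower (background: 34.2%), or 7 and 1 with plain totals and 2 in all past a 1.5-fold minimum (background: 31.1%), none of the 5 among the 8 catalytic and PA28 genes. Macrophage Mb had 4 higher and 1 lower (background: 28.1%), or 2 and 7 with plain totals, with Psmd10 at 1.06 ± 0.30 (adjusted p = 0.00368), Psmb6 at 0.73 ± 0.19 (adjusted p = 0.00136) and Psme1 at 0.49 ± 0.18 (adjusted p = 0.0345) among the higher. Psmd10 and Psmb6 were each called in 11 of 13 alternatives. The call on Psme1 held in 5 of 13 and was lost without any 1 of Aged A, Aged B, Young A, Young B and Young C. T and B cells had 0 higher and 5 lower (background: 17.0%), or 6 and 1 with plain totals, and NK cells had 0 higher and 3 lower (background: 12.1%), or 2 and 0 with plain totals. Without 1 mouse the calls in pericytes fell from 5 to 1 (Aged A or Young B), 2 (Aged C or Young C) or 3 (Aged B), in macrophage Mb from 5 to 3 (Aged A or Young C), in T and B cells from 5 to 3 (Aged A) or 2 (Aged B) and in NK cells from 3 to 0 (Aged A) or 1 (Young B or Young C). Lymphatic endothelial cells, 28 in all, had 1 higher, Psmb10 at 1.08 ± 0.33 (adjusted p = 0.0166), and 3 lower (background: 15.5%), or 4 and 0 with RLE factors, and 0 calls without Young A or 2 without Young C. The call on Psmb10 held in 6 of 12 alternatives and was lost without any 1 of Aged B, Aged C, Aged D and Young A. In Luminal-HS-AV cells 1 member, Psmb10 at -1.21 ± 0.28 (adjusted p = 0.000463), was called (background: 24.9%), or 2 without Aged A or Aged B. In macrophage Ma, which reached 3 cells in the young mice only, edgeR called 0 members (background: 17.7%), with 2 at an unadjusted p under 0.05 and 0 by DESeq2, and between macrophages Ma and Mb it called 1, Psmd8 at -0.84 ± 0.30 (adjusted p = 0.0479) (background: 15.6%), a call lost without any 1 mouse other than Aged A.

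**Figure D2:**
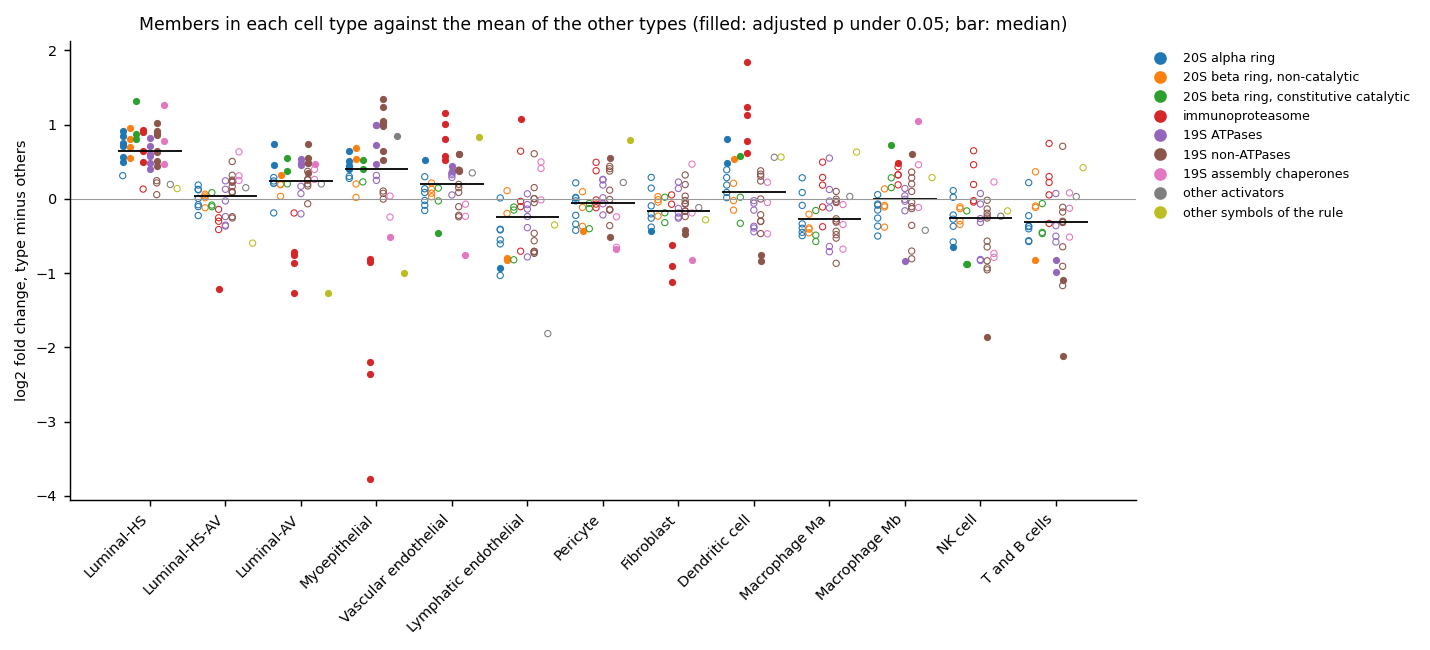
Log2 difference of each of 41 members (points, coloured by role) between 1 cell type and the mean of the other 12 types, with filled points past an adjusted p of 0.05 and a bar at the member median. Every Luminal-HS point lies above 0, and the immunoproteasome points (red) lie at -0.81 to -3.77 in myoepithelial cells and at 0.61 to 1.85 in dendritic cells.

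The balance between the inducible and constitutive peptidases was read as the share of Psmb8, Psmb9 and Psmb10 among the UMIs of these 3 and Psmb5, Psmb6 and Psmb7. It does not depend on the scaling of the libraries, and it is given as a description with no test, since it is a score over members. The share was 13.2% ± 5.12 (SD, n = 7) in myoepithelial cells, 28.8% ± 6.14 (SD, n = 7) in Luminal-AV cells and 39.3% ± 4.61 (SD, n = 7) in fibroblasts. It reached 64.2% ± 4.22 (SD, n = 7) in vascular endothelial cells and 64.8% ± 5.81 (SD, n = 5) in dendritic cells, and these 2 overlapped. No myoepithelial value (6.09% to 19.7%) overlapped with any other of the 12 types. The 3 pairs did not move alike: in myoepithelial cells Psmb8 was 30.5% ± 8.61 of the UMIs of Psmb8 and Psmb5 (SD, n = 7), whereas Psmb9 was 1.74% ± 1.40 of those of Psmb9 and Psmb6 (SD, n = 7). In vascular endothelial cells the same shares were 84.9% ± 3.03 and 39.7% ± 5.75 (SD, n = 7).

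**Figure D3:**
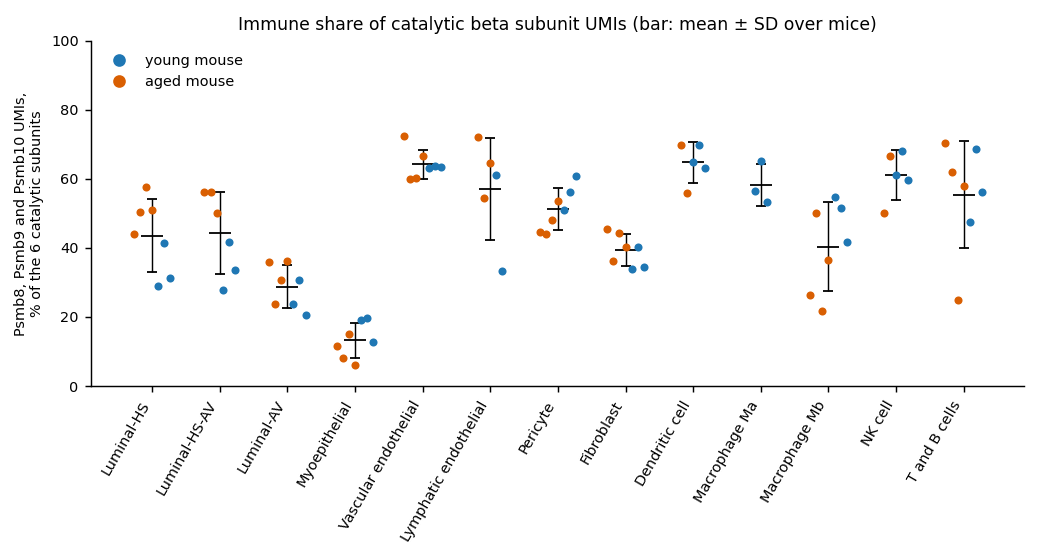
Share of the UMIs of the 6 catalytic beta subunits that belong to Psmb8, Psmb9 and Psmb10 (vertical axis, percent from 0 to 100) for each mouse (blue young, orange aged) in each cell type, with bars at mean and SD over mice. Myoepithelial cells lie lowest at 13.2%, and in Luminal-HS cells every aged mouse (44.1% to 57.6%) lies above every young mouse (28.9% to 41.5%).

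The genes that build, regulate and feed the proteasome were counted in the same fit. In vascular endothelial cells all 10 tested genes of class I presentation and interferon response were higher (background: 39.9% of all genes called), and 6 of 10 were lower in myoepithelial cells (background: 15.6% lower). Of 10 tested assembly and associated factors 7 were higher in Luminal-HS cells and 0 were lower (background: 37.5% higher), among them Pomp, which matures the 20S core, at 1.12 ± 0.14 (adjusted p = 7.98e-11), and Adrm1, a ubiquitin receptor of the cap, at 0.46 ± 0.14 (adjusted p = 0.00282). Of 10 tested regulators and shuttle factors 8 were higher and 2 lower in myoepithelial cells (background: 34.7% higher), with Nfe2l1, the transcription factor known for driving proteasome genes, at 0.73 ± 0.17 (adjusted p = 0.000157) and the ubiquitin-binding autophagy receptor Sqstm1 at 0.76 ± 0.19 (adjusted p = 0.000312). The pathway genes Tap1 and Tap2, which carry the cut peptides to class I molecules, were at 1.21 ± 0.17 (adjusted p = 2.03e-09) and 0.81 ± 0.18 (adjusted p = 8.03e-05) in vascular endothelial cells.

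The comparison of aged with young mice asked whether the proteasome differs with age within each type, in 8 types with at least 3 cells in all 7 mice. TMM scaling places the median gene near 0 in each type (-0.05 to 0.02 on the log2 scale), and with plain library totals that median moved to -0.41 in vascular endothelial cells, -0.36 in macrophage Mb, -0.25 in Luminal-AV cells and -0.17 to -0.08 in the other 5 types, so each change by age is one relative to all genes tested. Depth and mitochondrial content also separated the ages: median UMIs for each cell were 4758.5 to 5253 in young and 5582 to 7109.5 in aged mice, and mean mitochondrial shares were 3.45% to 4.10% and 2.76% to 3.11%. Their part in the age results was not tested. The thinning to equal totals evens the summed counts of the mice within a type. It does not even the depth of each cell or the mitochondrial share. In myoepithelial cells 7 of 41 tested members rose and 1 fell with age (background: 28.0% of 6740 genes called), or 4 and 2 with plain totals and 4 and 1 with DESeq2, and 15 had an unadjusted p under 0.05. The share of members called was under that of all genes, and the 7 higher members stand against 13.0% of all genes higher, which is a close share. All 7 were subunits of the 19S cap, 5 of 11 non-ATPases (list median 0.55 against 0.01 for all genes) and 2 of 6 ATPases (0.43), and in 12 members all aged mice lay above all young ones, with none the other way round (background: 18.2% of all genes not overlapping and higher, 17.5% lower). Psmd11, a scaffold of the lid that touches the 20S core, had 84.5, 115 and 93.6 CPM in Young A, B and C and 197, 174, 181 and 209.9 CPM in Aged A, B, C and D. All aged mice lay above all young mice, and the log2 change was 1.01 ± 0.20 (adjusted p = 0.00171), called in all 15 alternatives. Psmd3, another lid subunit, had 58.9, 32.1 and 32.3 CPM in Young A, B and C and 78.4, 82.3, 81.7 and 103 CPM in Aged A, B, C and D, a change of 0.91 ± 0.25 (adjusted p = 0.0131). Psmd1 had 88.3, 73.4 and 67.8 CPM in the young mice and 156, 142, 110.5 and 130.1 CPM in the aged mice, a change of 0.78 ± 0.21 (adjusted p = 0.0117), and like Psmd3 it was not called after thinning to equal totals. For the ATPase Psmc2 the values were 71.2, 45.9 and 74.3 CPM in the young mice and 100.1, 97.6, 107 and 143 CPM in the aged mice, a change of 0.76 ± 0.23 (adjusted p = 0.0235), lost without Aged D, Young A or Young B. For the lid subunit Psmd12 they were 69.3, 73.4 and 45.2 CPM in the young mice and 77.5, 111, 106 and 125 CPM in the aged mice, a change of 0.73 ± 0.24 (adjusted p = 0.0323), lost with DESeq2, with plain totals and without Aged B, Aged D, Young A or Young C. The other 2 were Psmc6 at 0.60 ± 0.20 (adjusted p = 0.0372) and Psmd4 at 0.55 ± 0.19 (adjusted p = 0.0365), without overlap of the ages in either. The count of 8 called members fell to 4 without Aged D, to 5 without Aged B and to 5 without Young A.

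The member that fell in aged myoepithelial cells was Psmb10, at 29.4, 27.5 and 19.4 CPM in Young A, B and C and 9.92, 8.38, 20.8 and 7.85 CPM in Aged A, B, C and D. Aged C lay among the young mice, and the change of -1.33 ± 0.38 (adjusted p = 0.0166) lost its call without Young A. Psmb8 at -0.58 ± 0.33 (adjusted p = 0.194), Psme1 at -0.27 ± 0.20 (adjusted p = 0.332) and Psme2 at -0.48 ± 0.25 (adjusted p = 0.165) did not pass, nor did Psmb5 at 0.12 ± 0.24 (adjusted p = 0.757), Psmb6 at 0.13 ± 0.21 (adjusted p = 0.687) or Psmb7 at 0.61 ± 0.29 (adjusted p = 0.122), and Psmb9 was too low to be tested. The immune share of the peptidase UMIs had a mean of 17.1% ± 3.85 over the 3 young mice and of 10.2% ± 3.92 (both SD) over the 4 aged mice, and the ages overlapped. Of the other genes of the pathway, 6 of 11 tested regulators and shuttle factors rose and 2 fell, beside the same 28.0% of all genes called. Sqstm1 rose from 169 ± 35.5 to 1136 ± 164 CPM (SD, n = 3 and 4), a change of 2.79 ± 0.23 (adjusted p = 1.17e-06), and Nfe2l2, the transcription factor of the oxidative stress response, changed by 0.97 ± 0.19 (adjusted p = 0.00126). The shuttles Ubqln2 at 1.22 ± 0.34 (adjusted p = 0.0136), Ubqln1 at 1.14 ± 0.26 (adjusted p = 0.00375) and Rad23b at 0.87 ± 0.21 (adjusted p = 0.00581) and the unfolding ATPase Vcp at 0.73 ± 0.21 (adjusted p = 0.0145) rose, while the deglycosylase Ngly1 at -1.42 ± 0.43 (adjusted p = 0.0203) fell. The ubiquitin-activating enzyme Uba1 at 0.76 ± 0.23 (adjusted p = 0.0192), the cap deubiquitinase Usp14 at 1.13 ± 0.25 (adjusted p = 0.00351), the class I genes H2-D1 at 1.27 ± 0.25 (adjusted p = 0.00134) and H2-K1 at 1.01 ± 0.22 (adjusted p = 0.00286) and the interferon-response factor Irf1 at 1.34 ± 0.34 (adjusted p = 0.00744) rose too. Summed levels of 4 fibroblast markers moved with age in these cells, from 418 to 766 CPM in young and 54.2 to 176 CPM in aged mice, with 4 of 4 tested lower, and those of 9 leukocyte markers from 19.7 to 71.4 CPM in young and 4.82 to 17.5 CPM in aged mice, with 1 of 1 tested lower. Of 4 epithelial markers 1 was higher, Epcam at 2.13 ± 0.21 (adjusted p = 5.33e-06). Without cells that held a leukocyte UMI, Psmd11, Psmd3, Psmd1, Psmc2 and Psmd12 kept their calls. The part of the fibroblast and epithelial markers in the changes by age was not tested.

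**Figure D4:**
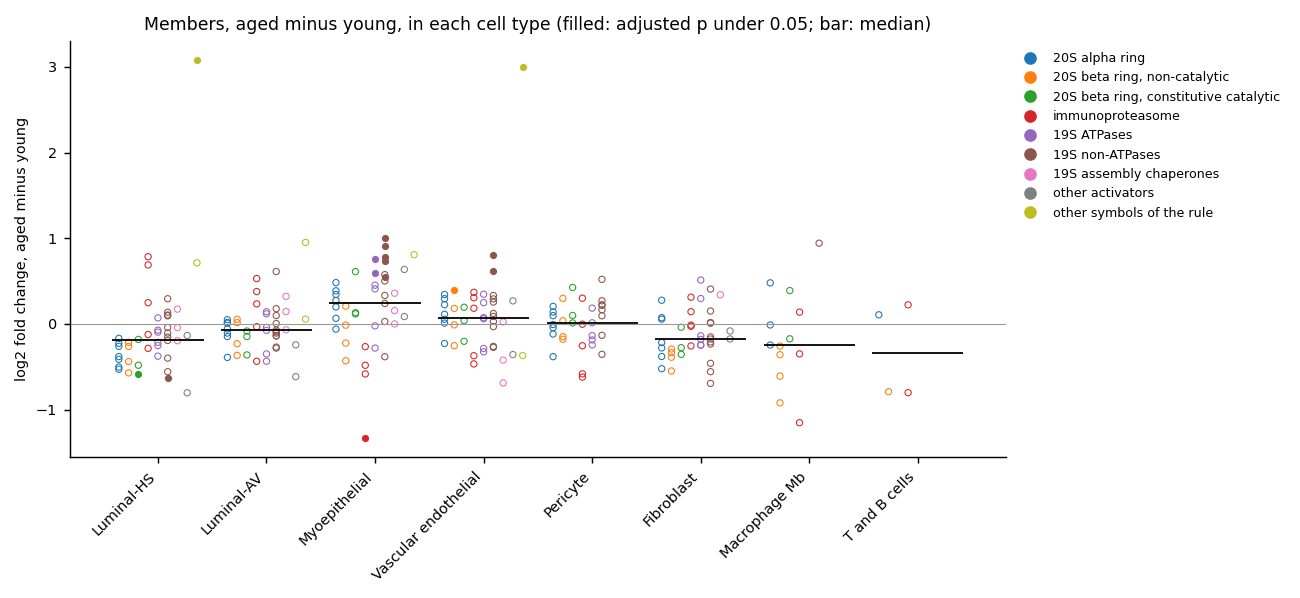
Log2 change of each tested member (points, coloured by role) between aged and young mice in 8 cell types, with filled points past an adjusted p of 0.05 and a bar at the member median. The filled points of myoepithelial cells are ATPases and non-ATPases of the 19S cap at 0.55 to 1.01 and Psmb10 at -1.33, and the 2 points near 3 are Psmc3ip in Luminal-HS and vascular endothelial cells.

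In Luminal-HS cells, where the members stood highest, 1 of 43 tested members rose and 2 fell with age (background: 6.39% of 8457 genes called), or 1 and 6 with plain totals and 2 and 5 with DESeq2, and 15 had an unadjusted p under 0.05. In 14 members all aged mice lay below all young ones and in 3 all lay above (background: 10.6% of all genes not overlapping and lower, 10.9% higher), and the member median was -0.19 against 0.02 for all genes. Psmb5 had 328, 258 and 323 CPM in Young A, B and C and 205, 216, 184 and 204 CPM in Aged A, B, C and D. The ages did not overlap, but the change of -0.58 ± 0.15 (adjusted p = 0.0476) was close to the threshold. It lost its call after thinning to equal totals and without any 1 of the 7 mice. Psmd6, a lid subunit, had 79.4, 61.7 and 69.4 CPM in Young A, B and C and 40.2, 52.1, 41.5 and 46.5 CPM in Aged A, B, C and D, a change of -0.63 ± 0.16 (adjusted p = 0.0442). Its call was lost after thinning to equal totals and without any 1 mouse other than Aged B. The count of 3 called members was 1 without Aged C, Aged D, Young A or Young C. The member that rose was Psmc3ip, at 2.34, 0.527 and 2.57 CPM in Young A, B and C and 13.7, 17.4, 23.5 and 19.9 CPM in Aged A, B, C and D, a change of 3.08 ± 0.37 (adjusted p = 0.00182) called in all 15 alternatives. It overlaps the gene Mlx on the other strand of chromosome 11.

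Of the inducible peptidases of Luminal-HS cells, Psmb9 and Psmb8 had changes above 0 and Psmb10 below it, and none passed the test. Psmb9 had 47.4, 80.2 and 53.6 CPM in Young A, B and C and 87.3, 87.9, 134 and 108 CPM in Aged A, B, C and D, with every aged mouse above every young one and a change of 0.78 ± 0.22 (adjusted p = 0.0594), which passed with DESeq2, without the filter, after thinning and without Young B. Psmb8 had 239.7, 391 and 313 CPM in Young A, B and C and 356, 535, 645 and 489.8 CPM in Aged A, B, C and D, with Aged A among the young mice and a change of 0.69 ± 0.23 (adjusted p = 0.096), which passed without the filter and without Aged A. Psmb6 had 398, 383 and 428 CPM in the young mice and 252, 304, 303 and 296 CPM in the aged mice, without overlap, and its change of -0.48 ± 0.15 (adjusted p = 0.0764) passed with DESeq2 and with plain totals only. Psmb10 at -0.29 ± 0.18 (adjusted p = 0.384), Psme1 at 0.25 ± 0.18 (adjusted p = 0.439), Psme2 at -0.12 ± 0.16 (adjusted p = 0.704) and Psmb7 at -0.18 ± 0.15 (adjusted p = 0.511) did not pass. As a share of peptidase UMIs the inducible genes were at 28.9% to 41.5% in young and 44.1% to 57.6% in aged mice (means of 33.9% ± 6.71, SD, n = 3, and 50.7% ± 5.52, SD, n = 4), and the ages did not overlap. Psmb9 made up 10.6% to 17.3% of the UMIs of Psmb9 and Psmb6 in young mice and 22.4% to 30.7% in aged mice, also without overlap, and Psmb8 made up 42.2% to 60.2% and 63.5% to 77.8% of those of Psmb8 and Psmb5. All members together took 0.539% to 0.621% of the UMIs in young and 0.463% to 0.501% in aged vascular endothelial cells. In pericytes these shares were 0.487% to 0.515% and 0.426% to 0.481%. Luminal-HS cells were the only other type of the age comparison without overlap. All members together took 0.674% to 0.770% of the UMIs in young and 0.577% to 0.651% in aged Luminal-HS cells. Of the class I and interferon-response list 3 of 11 tested genes rose, beside 6.39% of all genes called: H2-D1 at 1.43 ± 0.20 (adjusted p = 0.00331), the peptide trimmer Erap1 at 1.04 ± 0.28 (adjusted p = 0.049) and Tapbp, which loads peptides onto class I molecules, at 0.87 ± 0.18 (adjusted p = 0.0213). Of the regulators and of the assembly factors, 11 each, edgeR called 0. Summed fibroblast markers ran from 60.5 to 159.6 CPM in young and 288 to 1828 CPM in aged mice, with Dcn at 3.84 ± 0.58 (adjusted p = 0.00569), and leukocyte markers from 23.9 to 30.7 CPM in young and 1.18 to 13.8 CPM in aged mice. Without cells that held a leukocyte UMI, Psmb5 lost its call, while Psmd6 and Psmc3ip kept theirs. Aged mice gave 92 to 220 Luminal-HS cells and young mice 285 to 864. The part of the fibroblast markers and of these cell numbers in the result was not tested.

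**Figure D5:**
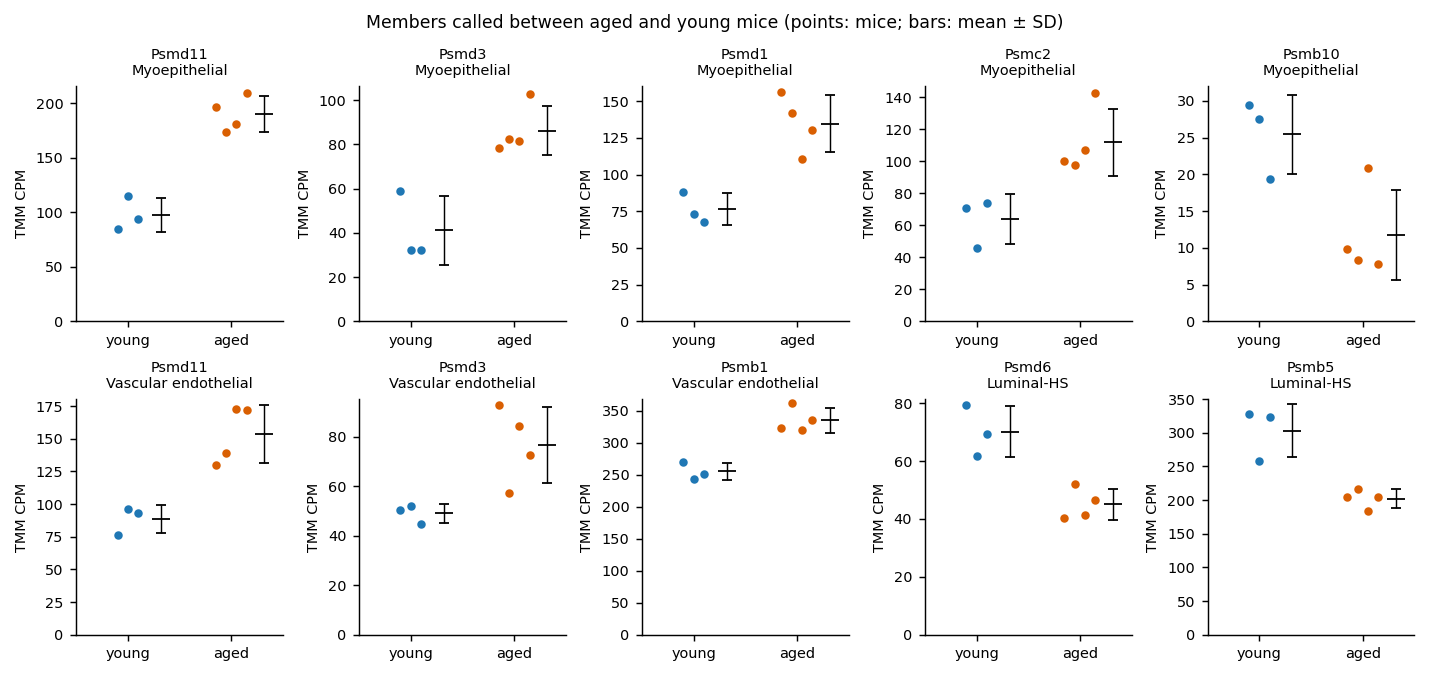
Level of 10 genes and types called with age (vertical axis, TMM-scaled CPM, linear from 0) in the 3 young (blue) and 4 aged (orange) mice, 1 point for each mouse and bars at mean and SD. Psmd11 in aged myoepithelial cells lies at 174 to 209.9 CPM against 84.5 to 115 in young ones, Psmb5 in Luminal-HS cells lies lower in aged mice, and for Psmb10 the mouse Aged C overlaps with the young mice.

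In vascular endothelial cells 4 of 43 tested members rose and 0 fell (background: 29.2% of 7864 genes called), but with plain totals 2 rose and 12 fell, and 12 had an unadjusted p under 0.05. The share of members called was under that of all genes. Psmd11 again had no overlap, with 76.7, 96.3 and 93.1 CPM in Young A, B and C and 130.2, 139, 173 and 172 CPM in Aged A, B, C and D, a change of 0.80 ± 0.16 (adjusted p = 0.00233) called in all 15 alternatives. Psmc3ip had 1.65, 0.973 and 2.48 CPM in the young mice and 9.64, 20.1, 14.9 and 6.04 CPM in the aged mice, a change of 3.00 ± 0.53 (adjusted p = 0.000947) called in all 11 alternatives that tested it. Psmd3 had 50.3, 52.0 and 44.7 CPM in the young mice and 92.8, 57.2, 84.3 and 72.4 CPM in the aged mice and changed by 0.62 ± 0.19 (adjusted p = 0.0258), and Psmb1 had 271, 244 and 252 CPM in the young mice and 323, 363, 320.3 and 335 CPM in the aged mice and changed by 0.39 ± 0.13 (adjusted p = 0.0351). Both were lost with plain totals and after thinning, and without each of Young A, B and C, and also Psmd3 without Aged A or C and Psmb1 without Aged B or D. The count of 4 fell to 2 without Aged C, Young A or Young B. The immunoproteasome genes did not pass in the comparison as described: Psmb8 was at 0.31 ± 0.19 (adjusted p = 0.243), Psmb9 at 0.18 ± 0.20 (adjusted p = 0.539), Psmb10 at -0.47 ± 0.20 (adjusted p = 0.0907), Psme1 at 0.37 ± 0.15 (adjusted p = 0.0794) and Psme2 at -0.37 ± 0.15 (adjusted p = 0.0713), and Psmb5 at -0.20 ± 0.18 (adjusted p = 0.42), Psmb6 at 0.04 ± 0.14 (adjusted p = 0.863) and Psmb7 at 0.19 ± 0.14 (adjusted p = 0.312) did not either. Psmb10 passed in 5 of 15 alternatives (plain totals, no filter, thinning, without Aged A and without Young C), Psme2 with plain totals and without Aged A, and Psme1 without Aged B. Sqstm1 at 1.99 ± 0.25 (adjusted p = 6.57e-05), Nfe2l2 at 1.03 ± 0.16 (adjusted p = 0.000439) and Rad23b at 0.53 ± 0.15 (adjusted p = 0.0193) rose, as did the ubiquitin gene Rps27a at 1.03 ± 0.13 (adjusted p = 9.19e-05) and the class I genes H2-D1 at 1.26 ± 0.19 (adjusted p = 0.00028) and H2-K1 at 0.82 ± 0.20 (adjusted p = 0.00804). Pomp at -0.57 ± 0.13 (adjusted p = 0.005) fell. Leukocyte markers summed to 41.9 to 110.0 CPM in young and 1.27 to 12.7 CPM in aged mice, with 3 of 3 tested lower, and fibroblast markers to 60.4 to 320.2 CPM in young and 15.2 to 61.4 CPM in aged mice, with 3 of 3 tested lower. The 9 dissociation and heat-shock genes summed to 12121 to 16396 CPM in young and 9437 to 12021 CPM in aged mice, with 1 higher and 2 lower. Without cells that held a leukocyte UMI, Psmd11, Psmd3 and Psmb1 kept their calls. The part of the fibroblast, dissociation and heat-shock genes in the result was not tested.

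In the other 5 types edgeR called 0 members with age. In Luminal-AV cells, the largest type with 104 to 1446 cells in each mouse, 4 of 43 had an unadjusted p under 0.05 and DESeq2 called 0 (background: 6.16% of genes called). Without Young A 1 member was called. Psmb8 changed by 0.38 ± 0.24 (adjusted p = 0.394), Psmb9 by 0.53 ± 0.37 (adjusted p = 0.437), Psmb10 by -0.03 ± 0.20 (adjusted p = 0.955), Psme1 by 0.23 ± 0.17 (adjusted p = 0.463), Psme2 by -0.44 ± 0.20 (adjusted p = 0.214), Psmb5 by -0.36 ± 0.21 (adjusted p = 0.343), Psmb6 by -0.15 ± 0.18 (adjusted p = 0.689) and Psmb7 by -0.08 ± 0.18 (adjusted p = 0.837). Irf1 rose by 2.62 ± 0.30 (adjusted p = 0.00122) and H2-D1 by 1.33 ± 0.32 (adjusted p = 0.0372) in the same cells. Here 7 of 8 tested leukocyte markers were lower, with sums of 66.9 to 156 CPM in young and 2.18 to 14.5 CPM in aged mice, as were 4 of 4 fibroblast markers. In fibroblasts, with 15 to 121 cells in the aged mice, 4 of 39 had an unadjusted p under 0.05 and DESeq2 called 0 (background: 3.17%), and the 8 catalytic and PA28 genes changed by -0.36 to 0.31. In pericytes 2 of 32 had an unadjusted p under 0.05 and DESeq2 called 0 (background: 11.9%), with Psme2 at -0.62 ± 0.21 (adjusted p = 0.0697) and no overlap of the ages. In macrophage Mb, with 3 to 9 aged cells in each mouse, 13 members could be tested, 3 had an unadjusted p under 0.05 and DESeq2 called 0 (background: 1.16%), and in T and B cells 4 could be tested, of which 1 had an unadjusted p under 0.05, with 0 called by DESeq2 (background: 0.656%). In the pathway lists Sqstm1 at 1.30 ± 0.25 (adjusted p = 0.0117) rose in fibroblasts, H2-D1 at 0.63 ± 0.18 (adjusted p = 0.0376) rose and Pomp at -0.75 ± 0.22 (adjusted p = 0.0414) fell in pericytes, and edgeR called 0 list genes in macrophage Mb and in T and B cells.

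A pair of members kept 1 side in several types without passing in any, and they were picked out after their values were seen. Psmb3, a non-catalytic beta subunit, was lower in every aged than in every young mouse in Luminal-HS, Luminal-AV, fibroblast, vascular endothelial and macrophage Mb cells, with changes of -0.44 ± 0.14 (adjusted p = 0.0897), -0.37 ± 0.18 (adjusted p = 0.239), -0.55 ± 0.23 (adjusted p = 0.21), -0.25 ± 0.13 (adjusted p = 0.164) and -0.92 ± 0.38 (adjusted p = 0.208). Psmd8, a lid subunit, was higher in every aged mouse in Luminal-HS, Luminal-AV, vascular endothelial, pericyte and macrophage Mb cells, at 0.29 ± 0.15 (adjusted p = 0.272), 0.61 ± 0.20 (adjusted p = 0.0944), 0.25 ± 0.13 (adjusted p = 0.165), 0.52 ± 0.24 (adjusted p = 0.167) and 0.94 ± 0.41 (adjusted p = 0.232). In the types named for Psmb3, 8.91% to 18.4% of all genes tested were likewise lower without overlap. In those named for Psmd8, 8.03% to 18.4% of all genes were higher without overlap. In fibroblasts the age effect of Psmd8 lay below that in Luminal-AV cells, by -1.10 in the interaction test given below. The types come from the same 7 mice, so these are not independent observations.

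Whether an age effect differed between types was tested as an interaction of age and type with Luminal-AV cells as the reference, over 10352 genes with the mouse as a block. In myoepithelial cells 3 of 43 members differed, all upward (background: 8.91%), or 5 up and 1 down with RLE factors and 11 up with plain totals. They were the nuclear activator Psme3 at 1.35 ± 0.36 (adjusted p = 0.0102), Psmd11 at 1.18 ± 0.31 (adjusted p = 0.0113) and Psmd3 at 0.97 ± 0.32 (adjusted p = 0.0446). Psme3 had 38.3, 26.4 and 41.5 CPM in the young mice and 21.3, 27.4, 26.9 and 19.6 CPM in the aged mice in Luminal-AV cells and 27.5, 32.1 and 48.4 CPM in the young mice and 45.1, 55.3, 60.9 and 51.0 CPM in the aged mice in myoepithelial cells, and neither change passed within its type. Without Young A 0 of the 3 were called, and without Young C 1 was, whereas 6 members were called without Aged A and 5 without Aged B. In fibroblasts 1 member differed (background: 3.22%), Psmd8 at -1.10 ± 0.28 (adjusted p = 0.0167), lost with RLE factors, with plain totals and without any 1 mouse other than Aged D. In macrophage Mb 3 differed (background: 3.27%): Psmb8 at -2.08 ± 0.54 (adjusted p = 0.0174), Psmb9 at -2.73 ± 0.81 (adjusted p = 0.0449) and Psmd6, whose fitted difference of -8.01 ± 2.18 (adjusted p = 0.0472) rests on aged samples at 0 and is no measure of size. None of the 3 was called with RLE factors or plain totals, and the count was 17 without Aged A, 0 without Aged C and 1 without Young A. In Luminal-HS cells edgeR called 0 members (background: 2.43%), with 8 at an unadjusted p under 0.05, and Psmb9 and Psmb8 differed from their Luminal-AV effects by 0.13 ± 0.38 (adjusted p = 0.928) and 0.12 ± 0.39 (adjusted p = 0.939), so a larger effect in Luminal-HS than in Luminal-AV cells was not detectable. In vascular endothelial cells (background: 9.85%), pericytes (background: 2.57%) and T and B cells (background: 0.0386%) edgeR called 0, with 5, 2 and 1 at an unadjusted p under 0.05, and no other tool was run on the interaction.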

How the data were processed

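The processed file held raw UMI counts per gene and cell, which the authors made with Cell Ranger 2.0 on the mm10 genome from 10x Chromium 3′ (version 2) libraries, and which were deposited with the authors' cell type of each cell. The members and gene lists were chosen with earlier results of these data known. The deposited cell table also held the fraction of mitochondrial UMIs, by the authors, per cell. Cells were kept as deposited, without a doublet caller. Of 13583 distinct barcodes, 101 occurred in more than 1 mouse. UMIs were summed per mouse and cell type where there were at least 3 cells. Sums were fitted with edgeR 4.0.16 in R 4.3.3 (TMM, filterByExpr, quasi-likelihood F test, Benjamini-Hochberg adjustment over all genes tested), and a call is an adjusted p under 0.05. Errors of log2 differences are SE. Age was tested within each type over the sums of 3 young and 4 aged mice, and types and the age interaction in joint fits with the mouse as a block. Levels within the age comparisons are scaled within a type, and those across types over all sums. Genes named with values are the 8 catalytic and PA28 genes in each main comparison, the called members with the largest changes (up to 5 without overlap of the ages for each age comparison, up to 3 for each type) and called genes of the pathway lists, for age and, as examples, between types, apart from some genes that are not reported here; Psmc6 and Psmd4 are named beyond this rule, after their values were seen. Alternatives were RLE factors, DESeq2 1.42.0, no filter, a 1.5-fold minimum, at least 10 cells, thinning to equal totals, cells without a leukocyte UMI, sums without ribosomal and mitochondrial genes, the label letter as a block, leaving out each mouse and, chosen after seeing the data, library totals without TMM. Age, type and interaction fits were also run on simulated counts with known changes and 1 fixed spread between mice. No minimum share of recovered changes was set for the interaction. Median depth was 4758.5 to 5253 UMIs for each cell in young and 5582 to 7109.5 in aged mice. Promoters came from RefSeq.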

Additional observations from a re-analysis of the deposited data

Results flagged for a closer look

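In 5 of 73 groups of 4 aged mice, 1 mouse lay apart from the other 3 beyond Dixon's 95% limit, and chance flags about 1 in 20 groups. In myoepithelial cells these were Aged C for Psmb10, at 20.8 CPM against 7.85 to 9.92 in the others, and Aged D for Psmd3, at 103 CPM against 78.4 to 82.3. In Luminal-HS cells it was Aged A for Psmb6, at 252 CPM against 296 to 304. Aged B was low for Psmb8 in Luminal-AV cells, at 93.8 CPM against 156 to 169, and in fibroblasts, at 96.9 CPM against 162 to 167.

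The test of the difference itself set 7 age effects apart from those of Luminal-AV cells. In myoepithelial cells they were Psme3 by 1.35, Psmd11 by 1.18 and Psmd3 by 0.97 on the log2 scale, and in fibroblasts Psmd8 by -1.10. In macrophage Mb they were Psmb8 by -2.08, Psmb9 by -2.73 and Psmd6 by -8.01, the last fitted on aged sums at 0. All 7 share the Luminal-AV cells of the same mice.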

How the results depend on the processing

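No named gene reversed its direction as a called value in any alternative. Counts of called members moved by more than 1.5 times as follows, and the cause was not tested. For age, the main counts were 8 in myoepithelial, 3 in Luminal-HS, 0 in Luminal-AV, 4 in vascular endothelial cells and 0 in pericytes. DESeq2 gave 5 in myoepithelial and 7 in Luminal-HS cells, thinning gave 4 in myoepithelial and 2 in vascular endothelial cells, and no filter gave 7 in Luminal-HS cells and 1 in pericytes. Plain totals gave 7 in Luminal-HS, 1 in Luminal-AV, 14 in vascular endothelial cells and 1 in pericytes. Leaving out 1 mouse gave 4 to 11 in myoepithelial, 1 to 2 in Luminal-HS, 0 to 1 in Luminal-AV and 2 to 4 in vascular endothelial cells. With the label letter as a replicate block the counts were 3 in myoepithelial, 1 in Luminal-HS and 2 in vascular endothelial cells, but the letters name different animals, and deviations of same-letter mice correlated by -0.17 to 0.37.

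Between types, RLE factors gave 12 in place of 19 in Luminal-AV, 21 in place of 34 in Luminal-HS, 1 in place of 3 in NK cells, 8 in place of 5 in pericytes, 2 in place of 15 for Luminal-HS-AV against Luminal-HS and 3 in place of 1 for macrophage Ma against Mb. DESeq2 gave 1 in NK cells, 12 in pericytes, 5 for Luminal-HS-AV against Luminal-HS, 4 for Ma against Mb and 7 in place of 3 for Luminal-HS-AV against Luminal-AV. Plain totals gave 11 in place of 7 in fibroblasts, 12 in Luminal-AV, 2 in place of 1 in Luminal-HS-AV, 1 in place of 4 in lymphatic cells, 1 in place of 0 in macrophage Ma, 9 in place of 5 in Mb, 8 in pericytes, 3 for Luminal-HS-AV against Luminal-HS and 3 for Ma against Mb. No filter gave 5 in place of 11 in dendritic cells, 4 in fibroblasts, 2 in Mb, 1 in NK cells, 0 in pericytes, 3 in place of 5 in T and B cells, 14 in place of 22 for Luminal-HS against Luminal-AV, 5 for Luminal-HS-AV against Luminal-HS and 0 for Ma against Mb. The 1.5-fold minimum gave 4 in fibroblasts, 7 in Luminal-AV, 19 in place of 29 in myoepithelial cells, 2 in pericytes, 7 in place of 15 in vascular endothelial cells and 13 for Luminal-HS against Luminal-AV. Without ribosomal and mitochondrial genes there were 2 in Luminal-HS-AV, 8 in lymphatic cells, 3 for Luminal-HS-AV against Luminal-HS and 0 for Ma against Mb, and with at least 10 cells 1 in Ma, 2 in Mb, 0 in NK cells, 3 in T and B cells and 3 for Luminal-HS-AV against Luminal-HS. Leaving out 1 mouse gave 6 to 11 in dendritic cells, 1 to 2 in Luminal-HS-AV, 0 to 6 in lymphatic cells, 3 to 5 in Mb, 0 to 3 in NK cells, 1 to 5 in pericytes, 2 to 6 in T and B cells, 2 to 19 and 0 to 5 for Luminal-HS-AV against Luminal-HS and against Luminal-AV, and 0 to 1 for Ma against Mb. The interaction counts of 3 in myoepithelial cells, 1 in fibroblasts and 3 in Mb became 6, 0 and 0 with RLE factors and 11, 0 and 0 with plain totals (1 in place of 0 in Luminal-HS), and 8 in Mb without ribosomal and mitochondrial genes. They ranged over 0 to 6, 0 to 1 and 0 to 17 without 1 mouse, and 0 to 1 in Luminal-HS and vascular endothelial cells. The immune share moved by less than its SD in all 113 alternatives run.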
